A study of Mus musculus with 41 samples.

Results

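Kif26b, a mouse gene that encodes a kinesin, is described here across 41 RNA-seq libraries of an endocardial cell line in which Notch signalling was stimulated or blocked. It is 1 gene of the 14133 genes listed for the series, found by its symbol in the first of 3 deposited tables and by the same Ensembl identifier (ENSMUSG00000026494) in all 3. It was chosen by its level under a Notch inhibitor against vehicle, so its values under inhibitor against vehicle are a description and carry no test. In both experiments that used the inhibitor its level was lowest in the treated groups. It was higher with the Notch ligands Jag1 or Dll4 than without them, and the co-cultures with ligand, which did not choose the gene, were tested.

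The cells were MEEC, a wild-type mouse embryonic endocardial line (endocardium is the inner lining of the heart), kept on 0.1% gelatin. OP9 cells are a stromal line that serves as a feeder layer, and here they carried the ligand Dll4, the ligand Jag1 or GFP. In experiment 1, MEEC were placed over OP9-Dll4, OP9-Jag1 or OP9-GFP at 90% confluence, for 24 h at 25% MEEC confluency or for 6 h at 50% (3 libraries per group), so time and seeding density differ together. In experiment 2, MEEC spent 24 h in 20 µM RO4929097 (RO), an inhibitor of gamma-secretase, the protease that frees the active Notch fragment, or in its vehicle DMSO, and then 6 h over OP9-GFP (4 libraries per group). In experiment 3, MEEC grew without feeders on recombinant ligand fixed to the well. The groups were rDLL4 (a His-tagged protein) with RO, rJAG1 (an Fc-tagged protein) with RO, rDLL4 with DMSO, rJAG1 with DMSO, and DMSO without ligand (3 libraries per group), and rDLL4 or rJAG1 alone means ligand with DMSO. Cells of experiment 3 had 24 h in the agent and then 14 h more with it in serum-free medium, 38 h in all, and no group received RO without ligand.

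Kif26b is an atypical kinesin: its motor domain has diverged, and in mouse and human cells it is known as a regulator of cell adhesion, polarity and migration more than as a cargo carrier. In mouse, signalling by Wnt5a through Ror receptors and Dishevelled leads to breakdown of the Kif26b protein, the ubiquitin ligase Nedd4 can target it, and it binds non-muscle myosin heavy chains. It is best known from kidney development in mouse, where Sall1 acts upstream of it and the integrin gene Itga8 depends on it. These are facts about the protein and other tissues, and RNA levels alone do not report on the protein.

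The gene lies on chromosome 1 of GRCm38, from 178529125 to 178939200 on the plus strand, and spans 410076 bases. The annotation gives it 3 transcripts, of which 2 code for protein, with 14696 exon bases in all and at most 15 exons. A further 3 annotated genes overlap it (an antisense RNA, a small nuclear RNA and a pseudogene), and none is listed in the tables. Whether any reads from them were counted with its own was not checked. The 250 bases before the annotated start are shown because the pattern followed a Notch inhibitor, and Notch acts through the DNA-binding protein RBPJ and induces repressors of the Hes and Hey families. The sequences are from RefSeq (GRCm38.p6). In the upstream sequence the capitals mark CACGCG, a box bound by Hes and Hey proteins. In the 30-base stretch after the start the capitals mark the RBPJ core TGGGAA, which lies on the minus strand and is therefore read TTCCCA.
Kif26b upstream, chr1:178528875-178529124, plus strand: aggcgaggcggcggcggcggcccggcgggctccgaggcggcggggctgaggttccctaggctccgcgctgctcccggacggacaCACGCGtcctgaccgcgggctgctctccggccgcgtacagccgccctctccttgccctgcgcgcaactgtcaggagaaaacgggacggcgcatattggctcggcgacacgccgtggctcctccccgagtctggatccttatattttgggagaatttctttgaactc
Kif26b downstream stretch, chr1:178529141-178529170, plus strand: gaaggaggcaagTTCCCAccgccggctcgg

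Both strands were searched over the 250 bases before and 50 bases after the start. The RBPJ core had 1 match, from base 29 after the start (178529153 to 178529158), and 25.6% of 32851 promoter windows of the same 300 bases hold at least 1. The CACGCG box had 1 match, starting 166 bases before the start, and 7.62% of all 250-base upstream windows hold one. The E-box CACGTG and the TATA box TATAAA had 0 matches in this window. Upstream, 68.4% of bases were G or C, against a median of 52.4% over all promoters. These matches describe the letters and show no binding.

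After 24 h in RO and 6 h over OP9-GFP, Kif26b stood at 18.3, 22.4, 18.9 and 20.9 units of normalized signal in the RO libraries, against 71.5, 64.7, 73.6 and 68.9 in the DMSO libraries. Signal is the authors' linear read level, with 1 fixed scale per library, normalized within each experiment. All RO libraries lay below all DMSO libraries, with a wide gap between the groups and little spread within them. The means were 20.1 ± 1.88 with RO and 69.7 ± 3.83 with DMSO (SD, n = 4 each), a level 3.46-fold lower with RO. On the log2(signal + 1) scale the difference was -1.74 ± 0.07 (SE). Of 12984 genes in that table, 5 had a more negative difference. Between 407 and 525 reads stood behind each RO value, and between 1400 and 1637 behind each DMSO value. The 8 listed endothelial and endocardial markers summed to 127.5 to 141.8 with RO and 115.8 to 122.5 with DMSO, ranges that do not overlap. Limma called 0 of the 8 (2 at an unadjusted p under 0.05). Of all 12984 genes it called 0.909% (1362 at an unadjusted p under 0.05), so the 0 is near the share of all genes. The part of the 8 markers in the Kif26b difference was not tested.

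**Figure D1:**
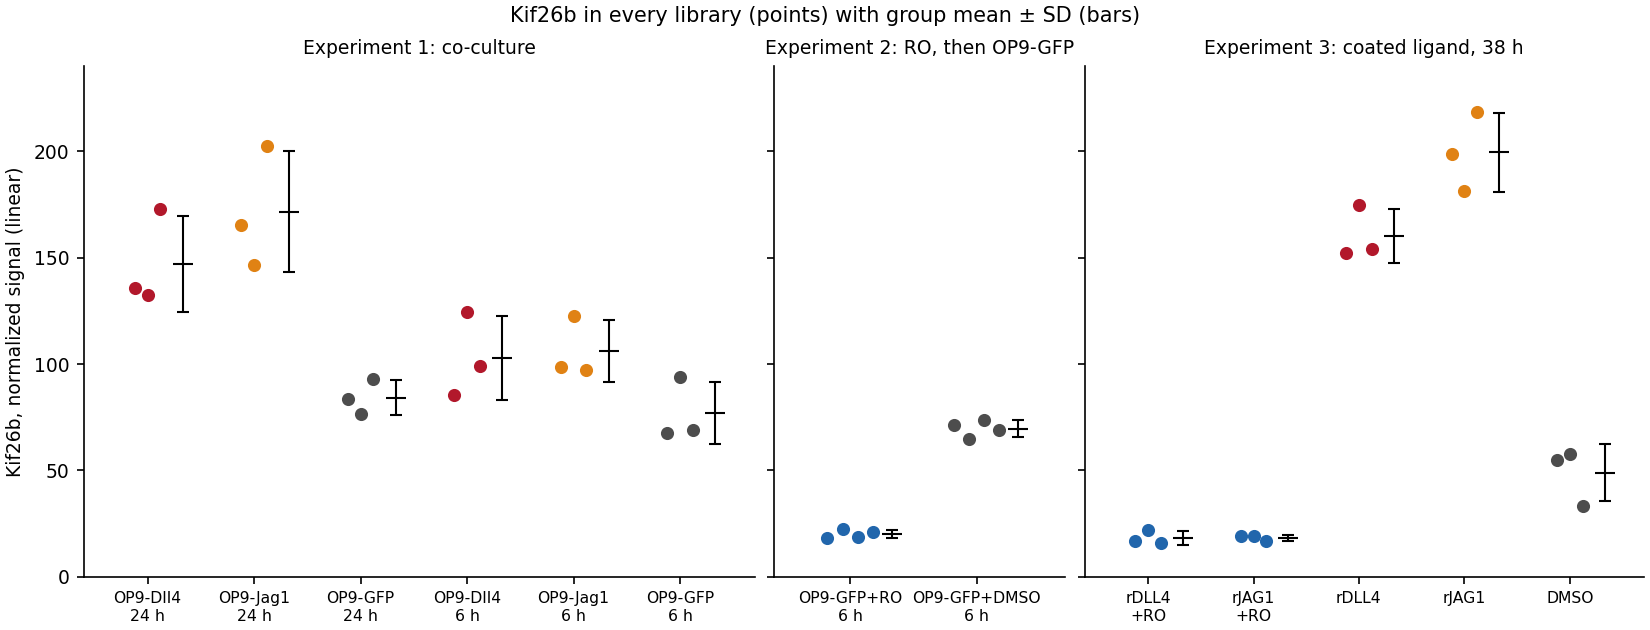
Normalized signal of Kif26b (linear axis from 0) in each of the 41 libraries, by group and experiment. Points are libraries, horizontal bars with whiskers are group means ± SD, and the 3 experiments were normalized separately; the inhibitor groups (blue) lie between 15.9 and 22.4, below every other library.

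On coated ligand without feeders the gene covered a wider range. With rDLL4 and RO together it stood at 16.8, 21.9 and 15.9, against 152.1, 174.6 and 153.9 with rDLL4 alone. With rJAG1 and RO it stood at 18.9, 19.0 and 16.8, against 198.7, 181.3 and 218.6 with rJAG1 alone. Libraries with DMSO and no ligand held 55.0, 57.9 and 33.5. The values fell into 3 levels that did not overlap: RO groups lowest, DMSO between, and ligand alone highest. The third DMSO library was the lowest of its group, and it still lay above every RO library.

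With RO, Kif26b was 8.79-fold lower than with rDLL4 alone (18.2 ± 3.24 against 160.2 ± 12.5, SD, n = 3 each, log2 difference -3.08 ± 0.17), the most negative difference of 13407 genes. With RO it was 10.9-fold lower than with rJAG1 alone (18.3 ± 1.29 against 199.5 ± 18.7, log2 difference -3.38 ± 0.17), where 3 genes had a more negative difference. Ligand alone against DMSO (48.8 ± 13.4) gave a log2 difference of 1.73 ± 0.17 for rDLL4, rank 9 from the top, and 2.04 ± 0.17 for rJAG1, rank 19. These comparisons share libraries: the rDLL4, rJAG1 and DMSO groups each enter several of them, so they are not separate pieces of evidence. Their values are given as a description for that reason, and because the inhibitor contrast chose the gene.

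Cells with ligand and RO also held less Kif26b than cells with DMSO and no ligand. The log2 difference was -1.35 ± 0.17 with rDLL4 and RO (2.68-fold lower) and -1.33 ± 0.17 with rJAG1 and RO (2.67-fold lower), ranks 13 and 9 from the bottom. None of the 6 known Notch targets measured lay that far below DMSO. Their log2 differences ran from -0.57 to 0.05 with rDLL4 and RO, and from -0.45 to 0.33 with rJAG1 and RO. Hey1, Heyl and Notch3 stood at 0.77, 0.095 and 1.34 with DMSO, so they had little room to fall on this scale. Hey2, a repressor of the Hes and Hey family, stood at 6.50 ± 1.70 with rDLL4 and RO and 6.65 ± 3.60 with DMSO (log2 difference 0.05 ± 0.25), and Hes1, another repressor of that family, stood at 19.7 ± 1.51 and 29.7 ± 2.50 (-0.57 ± 0.14). In Kif26b both RO groups overlapped each other, with a log2 difference of -0.01 between rDLL4 and rJAG1 under RO (95% confidence interval -0.37 to 0.34). Without RO, every rDLL4 library lay below every rJAG1 library (log2 difference -0.31, 95% confidence interval -0.67 to 0.04).

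The co-cultures asked whether contact with a ligand-bearing cell changed the gene, and when. At 24 h Kif26b stood at 135.6, 132.5 and 172.9 over OP9-Dll4 and at 165.5, 146.6 and 202.5 over OP9-Jag1, against 83.5, 76.4 and 92.8 over OP9-GFP. Every ligand library lay above every OP9-GFP library, and both ligand groups overlapped each other. Kif26b rose over OP9-Jag1 (171.6 ± 28.5 against 84.2 ± 8.24, SD, n = 3 each, log2 difference 1.01 ± 0.16, limma adjusted p = 0.0033), where 2.02% of 13886 genes were called at an adjusted p under 0.05. Both comparisons share the OP9-GFP libraries. It also rose over OP9-Dll4 (147.0 ± 22.5, log2 difference 0.79 ± 0.16, adjusted p = 0.034), where 0.511% of genes were called. In same-numbered libraries the ratio to OP9-GFP was 1.92 to 2.18 over OP9-Jag1 and 1.62 to 1.86 over OP9-Dll4.

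The OP9-Jag1 call at 24 h held in each of 6 fits that left out 1 library. The OP9-Dll4 call was lost in 5 of 6 such fits, without OP9-Dll4 library 1 or 3 (adjusted p = 0.11 and 0.22) and without OP9-GFP library 1, 2 or 3 (adjusted p = 0.12, 0.20 and 0.064), while its log2 difference stayed between 0.67 and 0.86. Cardiomyocyte markers, 6 of 10 of which are listed, summed to 43.8 to 79.1 in the 24 h OP9-Dll4 libraries, 21.4 to 32.9 in those of OP9-Jag1 and 29.5 to 33.2 in those of OP9-GFP. Their part in the OP9-Dll4 difference was not tested. Over OP9-Jag1, where Kif26b was highest, 0 of the 6 were called against OP9-GFP (2.02% of all genes called). Over OP9-Dll4 4 of the 6 rose, Myh7, Myl2, Actc1 and Ttn (0.511% of all genes called). Myl2 and Actc1 stood at 0.034 over OP9-GFP and 0.033 over OP9-Jag1, under the signal of 3 reads (at least 0.179). These 4 are not listed in experiments 2 and 3. They may be listed here only through OP9-Dll4 libraries, so their rise there is tied to their listing. Of 12 erythroid and leukocyte markers 3 are listed, summing to 4.02 to 9.02 over OP9-Dll4, 3.57 to 4.16 over OP9-Jag1 and 3.16 to 4.66 over OP9-GFP. Of these the haemoglobin gene Hbb-bs rose over OP9-Dll4 (2.82 ± 2.39, against 0.034 ± 0.0022 over OP9-GFP, log2 difference 1.71 ± 0.31, adjusted p = 0.018). Over OP9-Jag1 it stood at 0.057 ± 0.043 (0.03 ± 0.31). Hbb-bs too may be listed in experiment 1 only through OP9-Dll4 libraries. The 9 listed endothelial and endocardial markers summed to 93.9 to 102.6 over OP9-Dll4 and 89.6 to 98.9 over OP9-Jag1, both below the 116.5 to 122.5 over OP9-GFP. Of them 1 was called in each comparison, Cd34, a surface protein of endothelial and progenitor cells, which fell (-0.48 ± 0.07 and -0.59 ± 0.07). The part of these markers in the Kif26b differences was not tested.

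At 6 h the values were 85.3, 124.3 and 99.1 over OP9-Dll4 and 98.7, 122.7 and 97.0 over OP9-Jag1, against 67.8, 93.7 and 69.2 over OP9-GFP. The second library was the highest of each group, by a like amount in all 3, so the OP9-Dll4 and OP9-GFP groups overlapped although each OP9-Dll4 library lay above the OP9-GFP library of its number. Without regard to number, the difference did not pass over OP9-Jag1 (106.1 ± 14.3 against 76.9 ± 14.6, log2 difference 0.47 ± 0.16, adjusted p = 0.58; 0.101% of genes called). Nor did it pass over OP9-Dll4 (102.9 ± 19.7, 0.41 ± 0.16, adjusted p = 0.98; 0.0072% called). Same-numbered libraries deviated together across genes, and with the replicate number as a block within each time both passed: OP9-Jag1 with adjusted p = 2.2e-05, where 3.36% of genes were called, and OP9-Dll4 with adjusted p = 2.2e-04, where 1.17% were called. The ratio within a number was 1.31 to 1.46 over OP9-Jag1 and 1.26 to 1.43 over OP9-Dll4, higher in 3 of 3 pairs each.

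**Figure D2:**
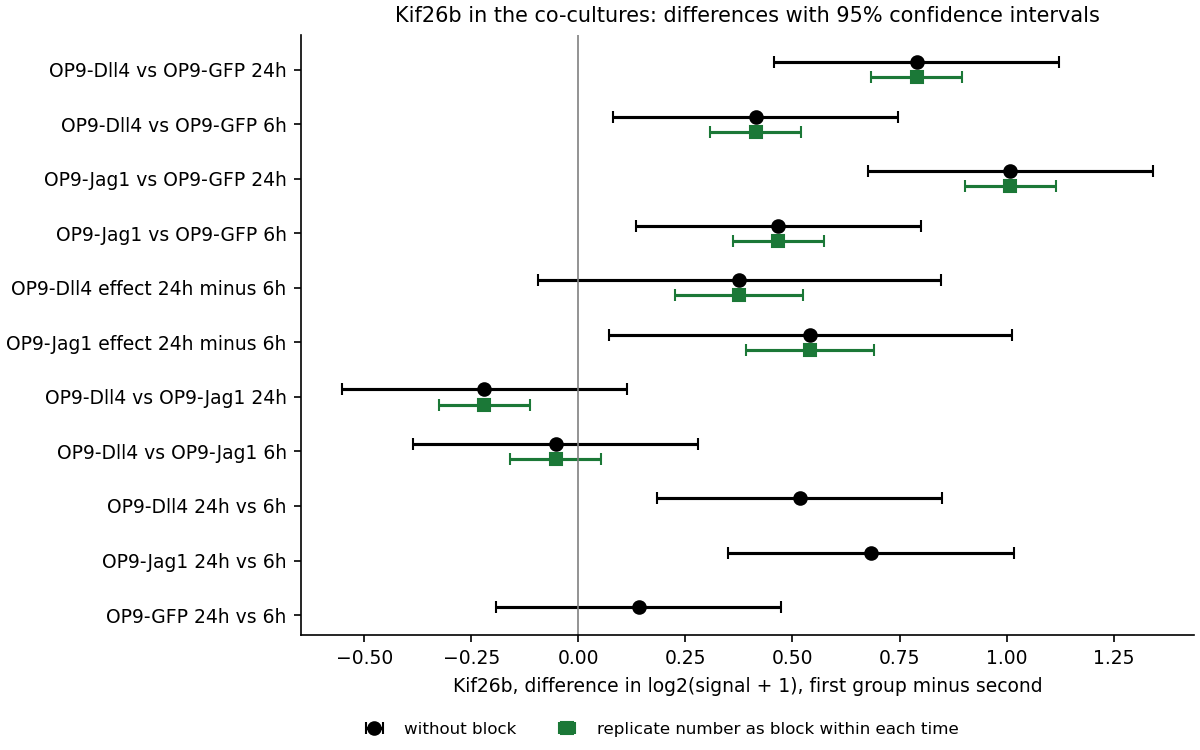
Differences of Kif26b in log2(signal + 1) between co-culture groups of experiment 1 (horizontal axis, first group minus second), with 95% confidence intervals. Black circles are the fit without a block, and green squares the fit with the replicate number as a block within each time, which was not run between times; the intervals of ligand against OP9-GFP lie above 0 in both fits.

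The rise over ligand was larger at 24 h than at 6 h, and whether that change passed depended on the pairing. The OP9-Jag1 effect was 0.54 ± 0.22 larger at 24 h on the log2 scale (adjusted p = 1.0; 0.0072% of genes called), or adjusted p = 6.3e-04 with the block within each time, where 1.31% of genes were called. For OP9-Dll4 it was 0.38 ± 0.22 larger (adjusted p = 1.0; 0.0072% called), or adjusted p = 0.033 with the block, where 0.252% were called. Over OP9-Jag1 the 24 h libraries lay above all 6 h libraries (log2 difference 0.68 ± 0.16, adjusted p = 0.0086; 14.7% of genes called). Over OP9-Dll4 they did so as well (0.52 ± 0.16, adjusted p = 0.034; 17.4% called), a call lost without library 1 or 3 of either OP9-Dll4 group (log2 difference 0.39 to 0.57, adjusted p = 0.057 to 0.14). Over OP9-GFP the 24 h and 6 h libraries overlapped (0.14 ± 0.16, adjusted p = 0.55, 95% confidence interval -0.19 to 0.47; 19.2% called).

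Set against each other, the ligands gave no called difference in Kif26b. At 24 h it was lower over OP9-Dll4 than over OP9-Jag1 by a log2 difference of -0.22 (95% confidence interval -0.55 to 0.11, adjusted p = 1.0; 0.0288% of genes called). Each OP9-Dll4 library held 0.819 to 0.904 times the level of the OP9-Jag1 library of its number, and the block gave adjusted p = 0.066, where 0.483% of genes were called. At 6 h the difference was -0.05 (95% confidence interval -0.39 to 0.28, adjusted p = 1.0, or 0.87 with the block). At that time limma called 0 of 13886 genes (258 at an unadjusted p under 0.05), as did edgeR and DESeq2. With library weights limma called 194, the most of any alternative.

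Within experiment 1 the group means ran, from high to low, OP9-Jag1 24 h, OP9-Dll4 24 h, OP9-Jag1 6 h, OP9-Dll4 6 h, OP9-GFP 24 h and OP9-GFP 6 h. Neighbours in that order overlapped, with the exception of OP9-Dll4 24 h and OP9-Jag1 6 h. Per kilobase of annotated exon, the scale on which genes can be set side by side, Kif26b had 11.7 units of signal over OP9-Jag1 at 24 h and 5.23 over OP9-GFP at 6 h, ranks 15 and 20 of the 35 listed kinesins. In experiment 2 it had 1.37 with RO and 4.74 with DMSO, ranks 29 and 21 of 35. In experiment 3 it had 1.24 with either ligand and RO, 10.9 with rDLL4, 13.6 with rJAG1 and 3.32 with DMSO, ranks 29, 29, 15, 12 and 23 of 34. Each experiment was normalized on its own, so levels are not compared between them. Kif26a, its closest relative in the mouse genome, is not listed in any of the 3 tables.

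OP9 RNA could contribute to the co-culture libraries, since both lines are mouse, and whether MEEC were separated from OP9 before extraction is not given in the sources used here. In bulk samples fewer cells of a type and less RNA per cell cannot be told apart. Of 12 OP9 stromal markers 8 are listed, and they summed to 833 to 967 over OP9-Dll4, 825 to 979 over OP9-Jag1 and 703 to 991 over OP9-GFP at 24 h, ranges that overlap. In all 6 co-culture groups of experiment 1, the library with the highest marker sum was also the library with the most Kif26b. At 6 h this was library 2, with sums of 1323, 1234 and 1462 over OP9-Dll4, OP9-Jag1 and OP9-GFP. This match was not particular to the OP9 list. Library 2 also had the highest endothelial and endocardial sums at 6 h (124.5, 125.1 and 125.2), and the highest erythroid and leukocyte sums. Its cardiomyocyte sums were the lowest (24.1, 26.4 and 23.2). At 24 h the endothelial sum peaked with Kif26b over OP9-Dll4 and OP9-Jag1, but not over OP9-GFP. In experiment 2 the first RO and the first DMSO library had the highest OP9 marker sums (1713 and 1727), and neither had the most Kif26b of its group. In experiment 3, without OP9, the library with the highest sum had the most Kif26b in 1 of 5 groups. The part of OP9 RNA in the spread between libraries was not tested. These sums cannot gauge it, because MEEC grown without OP9 in experiment 3 expressed genes of this list too. In experiment 3, without OP9, the same markers summed to 1132 to 1247 with rDLL4 and RO, against 867 to 1041 with rDLL4 alone. They summed to 1074 to 1097 with rJAG1 and RO, against 915 to 1029 with rJAG1 alone, and to 654 to 1011 with DMSO. The sums with RO thus lay above those of the same ligand alone. The endothelial and endocardial markers did so too, with sums of 178.0 to 187.0 with rDLL4 and RO, against 131.3 to 162.9 with rDLL4, and of 156.9 to 178.5 with rJAG1 and RO, against 110.7 to 126.2 with rJAG1 (140.7 to 208.5 with DMSO). Of the 8 listed, limma called 1 higher and 1 lower with RO on rDLL4, where 10.7% of all genes were called. On rJAG1 it called 2 higher and 3 lower with RO, where 18.4% of all genes were called. The part of either list in the Kif26b differences was not tested.

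Libraries held 11.2 to 34.2 M reads (M, mega), with a median of 15.2 M in experiment 1, 22.5 M in experiment 2 and 18.1 M in experiment 3, and 211 to 4110 of them came from Kif26b. At 0 reads, the upper limit of 3 reads would equal a signal of 0.0859 to 0.266, far under every Kif26b value. Of 15 endothelial and endocardial markers 9 are listed in experiment 1 and 8 in each other experiment. Kdr, Tek, Fli1, Esam, Cd34 and Nfatc1 are listed in all 3 tables, whereas Pecam1, Cdh5, Tie1, Emcn, Erg and Vwf are listed in none, so several defining endothelial genes are absent from the tables. As a check of the labels, Hey1, a repressor induced by Notch, stood at 9.86 ± 1.36 over OP9-Jag1 and 5.15 ± 1.34 over OP9-Dll4, against 1.86 ± 0.25 over OP9-GFP at 24 h (adjusted p = 1e-05 and 0.0072).

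Of 21 kinesins of transport and other roles measured in experiment 1, 1 rose and 1 fell over OP9-Jag1 at 24 h, where 2.02% of all genes were called, and 0 of 13 mitotic kinesins were called. The median log2 difference was -0.06 over the 21 and -0.02 over the 13, against 0.00 over all genes. Kif21b, a kinesin that slows microtubule growth, rose (5.87 ± 1.49 against 2.43 ± 1.36, log2 difference 1.07 ± 0.26, adjusted p = 0.046). Kifc3, a minus-end-directed motor found at cell junctions, fell (71.9 ± 7.58 against 95.2 ± 3.70, -0.40 ± 0.07, adjusted p = 0.0066). Over OP9-Dll4 at 24 h, where 0.511% of all genes were called, limma called 0 of either list (2 of 21 and 1 of 13 had an unadjusted p under 0.05). With the replicate number as a block within each time, 1 of 21 rose (Kif21b) and 3 fell over OP9-Jag1, where 10.9% of all genes were called, and 1 rose (Kif21b, 0.74, adjusted p = 0.0022) and 2 fell over OP9-Dll4, where 5.82% were called. The mitotic kinesin Kif18a then fell over both (-0.29 and -0.26, adjusted p = 0.013 and 0.046).

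Under RO over OP9-GFP, where 0.909% of genes were called, limma called 0 of the 21 and 0 of the 13, with 1 and 0 at an unadjusted p under 0.05. Their log2 differences lay between -0.37 and 0.21 and between -0.02 and 0.10. Under the block by number, 1 of the 21 fell, Kif5c, a neuronal transport kinesin (-0.37, adjusted p = 0.041), where 3.29% of genes were called. On coated rJAG1 with RO against rJAG1 alone, where 18.4% of genes were called, 3 rose and 1 fell of 20 transport kinesins, and 2 of 13 mitotic kinesins rose. Kif21b fell to 7.67 ± 2.03 with RO, against 18.7 ± 1.1 with rJAG1 alone (-1.21 ± 0.17), and Kifc3 rose to 89.0 ± 2.19, against 45.8 ± 3.79 (0.94 ± 0.09). The mitotic pair were Kif11, which pushes spindle poles apart (0.36 ± 0.08), and Kif20b, which acts in cytokinesis (0.29 ± 0.10). Blocked by replicate number, 7 of the 20 rose, 1 fell and 3 of the 13 rose, where 27.1% of genes were called. With rDLL4 and RO against rDLL4 alone, where 10.7% were called, the only kinesins called were Kif21b (-0.97 ± 0.17) and Kifc3 (0.46 ± 0.09).

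Against DMSO without ligand, Kif21b and Kifc3 were again called. With rJAG1, where 9.58% of genes were called, they changed by 1.02 ± 0.17 and -0.87 ± 0.09, and the mitotic kinesins Kif11, Kif20b and Kif2c, which takes microtubules apart, fell by 0.28 to 0.33 on the log2 scale; with the block 5 of 13 fell, where 15.1% of genes were called. With rDLL4, where 3.5% were called, Kif21b and Kifc3 changed by 0.88 ± 0.17 and -0.59 ± 0.09, and 0 of 13 mitotic kinesins were called.

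**Figure D3:**
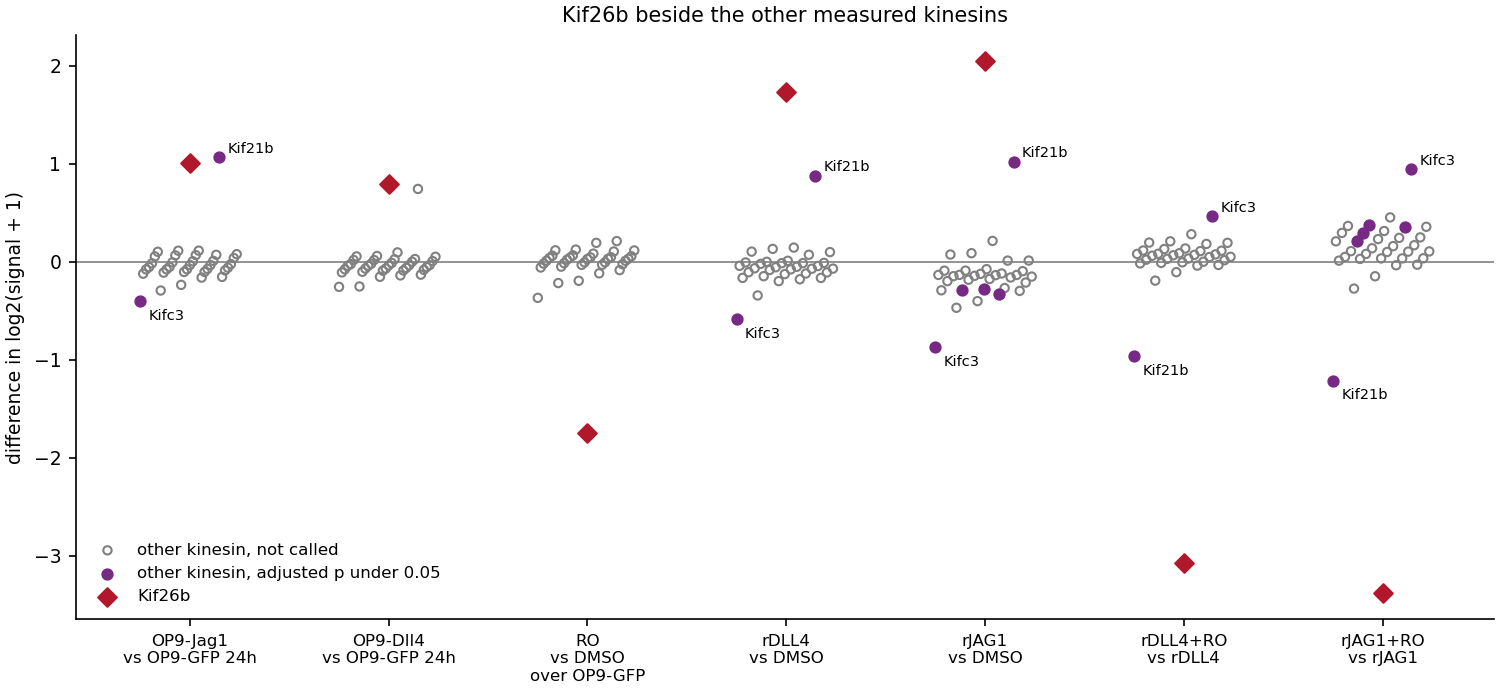
Differences in log2(signal + 1) for Kif26b (red diamonds) and the other measured kinesins (circles, filled where the adjusted p was under 0.05) in 7 comparisons, each named on the horizontal axis with its first group above its second. Kif26b lies beyond every other kinesin in the 5 comparisons of experiments 2 and 3 and between 0.79 and 1.01 at 24 h in co-culture, where Kif21b reached 1.07 over OP9-Jag1.

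Genes of Wnt5a-Ror and planar polarity signalling, the pathway that acts on the Kif26b protein, were measured for 28 of 30 members in the co-cultures. Limma called 0 of 28 over OP9-Jag1 at 24 h, where 2.02% of all genes were called, and 0 of 28 over OP9-Dll4 at 24 h, where 0.511% were. In each, 5 of the 28 had an unadjusted p under 0.05, as had 1453 and 944 of all 13886 genes. With the replicate number as a block within each time, 3 rose and 4 fell over OP9-Jag1, where 10.9% of all genes were called, and 2 rose and 3 fell over OP9-Dll4, where 5.82% were called. Fzd8, a receptor gene, and Wnt11, a ligand of planar polarity signalling, rose over both (Fzd8 by 0.83 and 0.57, Wnt11 by 0.85 and 0.61 on the log2 scale, over OP9-Jag1 and OP9-Dll4). The ligand gene Wnt5a stood at 41.7 ± 4.02 over OP9-Jag1 and 42.9 ± 2.98 over OP9-Dll4, against 55.1 ± 3.25 over OP9-GFP at 24 h (adjusted p = 0.17 and 0.45, or 3e-05 and 2e-04 with the block). At 6 h, 0 of 28 were called over either ligand (1 each at an unadjusted p under 0.05). Of all genes 0.101% were called over OP9-Jag1 and 0.0072% over OP9-Dll4, and 692 and 539 of 13886 had such an unadjusted p. With the block 2 rose and 1 fell over OP9-Jag1 and 1 rose over OP9-Dll4, where 3.36% and 1.17% of all genes were called. The receptor gene Ror2 stood at 20.4 ± 1.58 and 19.6 ± 2.05 over OP9-Jag1 and OP9-Dll4, against 18.4 ± 0.40 over OP9-GFP. Under RO over OP9-GFP, 0 of 28 were called (5 at an unadjusted p under 0.05), where 0.909% of all genes were called and 1362 of 12984 had such an unadjusted p. Wnt5a had 43.2 ± 3.06 with RO and 47.3 ± 6.57 with DMSO, and Ror2 had 16.5 ± 1.90 and 17.9 ± 3.08.

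On coated ligand several of these genes moved. With rJAG1 and RO against rJAG1 alone, 4 of 27 rose and 6 fell, where 18.4% of all genes were called. Under the block 7 rose and 8 fell, where 27.1% were called. Those that fell in both fits included Wnt11 (4.91 ± 0.81 with RO, against 15.9 ± 4.23 with rJAG1 alone, log2 difference -1.49 ± 0.19), Daam2, a formin that acts downstream of Dishevelled (-1.04 ± 0.14), and Fzd8 (-0.79 ± 0.10). Those that rose included the receptor genes Fzd4 (88.8 ± 0.96, against 46.7 ± 5.30, 0.92 ± 0.12) and Fzd5 (0.60 ± 0.11). With rDLL4 and RO against rDLL4 alone, 1 rose (Fzd4, 0.49 ± 0.12) and 7 fell, Daam2 (-1.03 ± 0.14), Wnt11 (-0.96 ± 0.19) and Fzd8 (-0.64 ± 0.10) the furthest. Ror2 was among those that fell (7.34 ± 1.37 with RO, against 11.4 ± 0.68 with rDLL4 alone, -0.58 ± 0.17, adjusted p = 0.037). On rJAG1 it passed with the block only (8.68 ± 1.21 with RO, against 12.6 ± 1.19, -0.50, adjusted p = 0.052 without and 0.0097 with the block).

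With rJAG1 against DMSO, 4 of 27 rose and 4 fell, where 9.58% of genes were called, and with the block 5 rose and 6 fell, where 15.1% were called. Wnt11 had 15.9 ± 4.23, against 5.02 ± 1.1 (1.47 ± 0.19), and Wnt5a had 59.5 ± 5.83, against 108.8 ± 25.5 (-0.84 ± 0.13). With rDLL4 against DMSO 3 rose, Daam2, Wnt11 and Fzd8 (0.82 ± 0.14, 0.80 ± 0.19 and 0.56 ± 0.10), and 0 fell, whereas with the block Wnt5a fell as well (-0.40, adjusted p = 0.046), where 6.47% of genes were called. With ligand and RO against DMSO, Wnt5a was the only member called without the block, lower in both (-0.59 ± 0.13 with either ligand; 1.4% and 0.94% of genes called with rDLL4 and rJAG1, 4.38% and 2.9% with the block, which added Fzd2 on rDLL4). Ror1, the other Ror receptor gene, was low, at 3.57 ± 0.18 with rJAG1 and RO and 3.41 ± 1.1 with rJAG1 alone.

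Partners and regulators of Kif26b known from mouse were measured for 9 of 10 genes in the co-cultures. Limma called 0 in each of the 4 comparisons of ligand with OP9-GFP (0, 0, 0 and 1 at an unadjusted p under 0.05 for OP9-Dll4 6 h, OP9-Jag1 6 h, OP9-Dll4 24 h and OP9-Jag1 24 h). In the same order 0.0072%, 0.101%, 0.511% and 2.02% of all genes were called, and 539, 692, 944 and 1453 of 13886 had an unadjusted p under 0.05. Under the block within each time, 2 rose and 1 fell over OP9-Jag1 at 24 h, where 10.9% of all genes were called: Itga8 (0.80, adjusted p = 0.015), Nedd4l, a ubiquitin ligase gene related to Nedd4 (0.28, adjusted p = 0.0028), and Cdk5r1, an activator of the kinase Cdk5 (-0.49, adjusted p = 0.045). Nedd4l also rose over OP9-Jag1 at 6 h (0.24, adjusted p = 0.024). Myh10, a non-muscle myosin heavy chain, had 418.7 ± 29.97 with RO and 442.2 ± 42.9 with DMSO over OP9-GFP, and Nedd4 had 1229 ± 93.9 and 1182 ± 90.9. None of the 8 partners measured there was called (2 at an unadjusted p under 0.05), where 0.909% of all genes were called and 1362 of 12984 had such an unadjusted p. On rJAG1, Nedd4 rose with RO (1340 ± 75.8, against 997.3 ± 175.9 with rJAG1 alone, log2 difference 0.44 ± 0.11, adjusted p = 0.0085). The adhesion gene Cdh2, N-cadherin, fell with RO on both ligands (-0.53 ± 0.11 on rJAG1 and -0.47 ± 0.11 on rDLL4). On rJAG1 with RO against rJAG1 alone, 3 of 9 partners were called without the block (18.4% of all genes) and 5 of 9 with it (27.1%), which added the myosin heavy chain gene Myh9 (-0.40, adjusted p = 0.047) and Cdk5 (-0.30, adjusted p = 0.035).

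Itga8, the integrin gene tied to Kif26b in mouse kidney, differed on coated ligand, but its signal was low. The gene may be listed in experiment 3 only through the groups with ligand alone, where it was high, so its difference is tied to its listing. Among genes with a mean signal of at least 4, the count of partners called fell from 1 to 0 for either ligand against DMSO. Itga8 had 0.258, 0.272 and 0.373 with rJAG1 and RO, 5.44, 5.98 and 5.06 with rJAG1, and 0.384, 0.501 and 0.419 with DMSO. The rJAG1 libraries stood apart from both other groups, and the RO libraries lay close to the signal of 3 reads, which is at most 0.266. With rDLL4 it had 0.291, 0.403 and 0.263 with RO, against 3.64, 3.17 and 2.97 without. The log2(signal + 1) differences were -2.32 ± 0.13 for rJAG1 with RO against rJAG1, 2.18 ± 0.13 for rJAG1 against DMSO, and -1.69 ± 0.13 for rDLL4 with RO against rDLL4, a scale that understates the change of so low a gene. In the 24 h co-cultures Itga8 had 1.43, 0.379 and 1.94 over OP9-Jag1, against 0.106, 0.325 and 0.287 over OP9-GFP, and did not pass without the block (adjusted p = 0.41). It is not listed in experiment 2.

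The annotation places 35 genes on chromosome 1 within 1 Mb of Kif26b, of which 10 are listed. Limma called 0 of these 10 in the 4 comparisons of ligand with OP9-GFP, under RO over OP9-GFP and on coated ligand with RO against ligand alone. At an unadjusted p under 0.05 there were 0, 1, 1 and 0 in the first 4 (OP9-Dll4 and OP9-Jag1 at 6 h, then at 24 h), 2 under RO, and 0 and 3 for rDLL4 and rJAG1. In the same order limma called 0.0072%, 0.101%, 0.511%, 2.02%, 0.909%, 10.7% and 18.4% of all genes. At an unadjusted p under 0.05 there were 539, 692, 944 and 1453 of 13886 genes, 1362 of 12984, and 3043 and 4132 of 13407. Blocked by replicate number, Smyd3 rose over OP9-Dll4 at 24 h (0.29, adjusted p = 0.034), where 5.82% of all genes were called. Adss, Efcab2 and Sccpdh, 3 of the 10, fell with rJAG1 and RO against rJAG1 (-0.23, -0.42 and -0.27). In that blocked fit 27.1% of all genes were called. The nearest are Efcab2, which ends 44612 bases before Kif26b starts, and Smyd3, a methyltransferase gene whose nearer end lies 12760 bases beyond the end of Kif26b. The log2 differences of the 10 lay between -0.31 and 0.05 under RO over OP9-GFP, where that of Kif26b was -1.74, and between -0.42 and 0.12 for rJAG1 with RO against rJAG1, where that of Kif26b was -3.38.

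Likeness of pattern was measured as the mean of 3 Pearson correlations with Kif26b, 1 within each experiment, over 18, 8 and 15 libraries, for the 10293 other genes with a mean signal of at least 5 in every table. The libraries share groups and processing, so the correlations describe and are not tested. Genes picked in this way follow Kif26b in the same libraries, so their group differences given below are no separate evidence. The 5 most alike were Tgfb2, a growth factor of endocardial cushion formation (mean r = 0.944), Prag1, a pseudokinase (0.928), Jag1 (0.926), the zinc finger gene Zfp697 (0.920) and the cytokine gene Il33 (0.919). With the replicate number taken out first, Prag1 and Il33 remained among the first 5, and Ank1, Klf9 and Adam12 took the places of Tgfb2, Jag1 and Zfp697. Least alike were the phospholipase gene Ddhd2 (-0.898), Ssx2ip, which encodes a centrosome and junction protein (-0.869), and Smad9, a mediator of BMP signals (-0.864). Among known Notch targets, Hey2 ranked 30, Nrarp, a feedback inhibitor, 39 and Hes1 62.

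Tgfb2 lies on the same chromosome, at 186622792 to 186705989 on the minus strand, and the other 4 lie on chromosomes 8, 2, 3 and 19. It stood at 25.0, 25.0, 28.9 and 24.5 with RO, against 43.6, 39.6, 45.1 and 43.1 with DMSO over OP9-GFP, groups that did not overlap. Tgfb2 was picked by its likeness to Kif26b in these same libraries, so this separation follows from the choice. Its log2 difference was -0.71 ± 0.07 there, and -1.29 ± 0.08 for rJAG1 with RO (37.6 ± 0.54) against rJAG1 (93.7 ± 8.98), both smaller in size than those of Kif26b. With rDLL4 and RO it had 38.7 ± 3.08, against 39.0 ± 3.17 with DMSO without ligand, whereas Kif26b was 2.68-fold lower there. Il33 had larger differences than Kif26b in some comparisons, with -2.13 ± 0.13 under RO over OP9-GFP (8.17 ± 0.58, against 39.8 ± 8.28) and 3.45 ± 0.17 for rJAG1 against DMSO (227.1 ± 14.8, against 20.5 ± 6.35). It had smaller ones in others, with -2.54 ± 0.17 for rDLL4 with RO against rDLL4, and -0.20 ± 0.17 for rJAG1 with RO against DMSO.

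Jag1 is itself the ligand that the OP9-Jag1 cells carry. It had 61.7, 67.9 and 67.2 over OP9-Jag1 at 24 h and 58.2, 61.7 and 58.7 over OP9-Dll4, against 46.6, 41.3 and 40.5 over OP9-GFP. Both ligand groups lay above OP9-GFP and met each other at 61.7, the highest OP9-Dll4 and the lowest OP9-Jag1 library. Dll4, the other ligand gene, is not listed in any table. Prag1 had a log2 difference of 1.19 ± 0.17 over OP9-Jag1 at 24 h and -2.86 ± 0.23 for rJAG1 with RO against rJAG1. Ddhd2 went the other way, with -0.45 ± 0.09 and 0.72 ± 0.09 in the same comparisons.

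**Figure D4:**
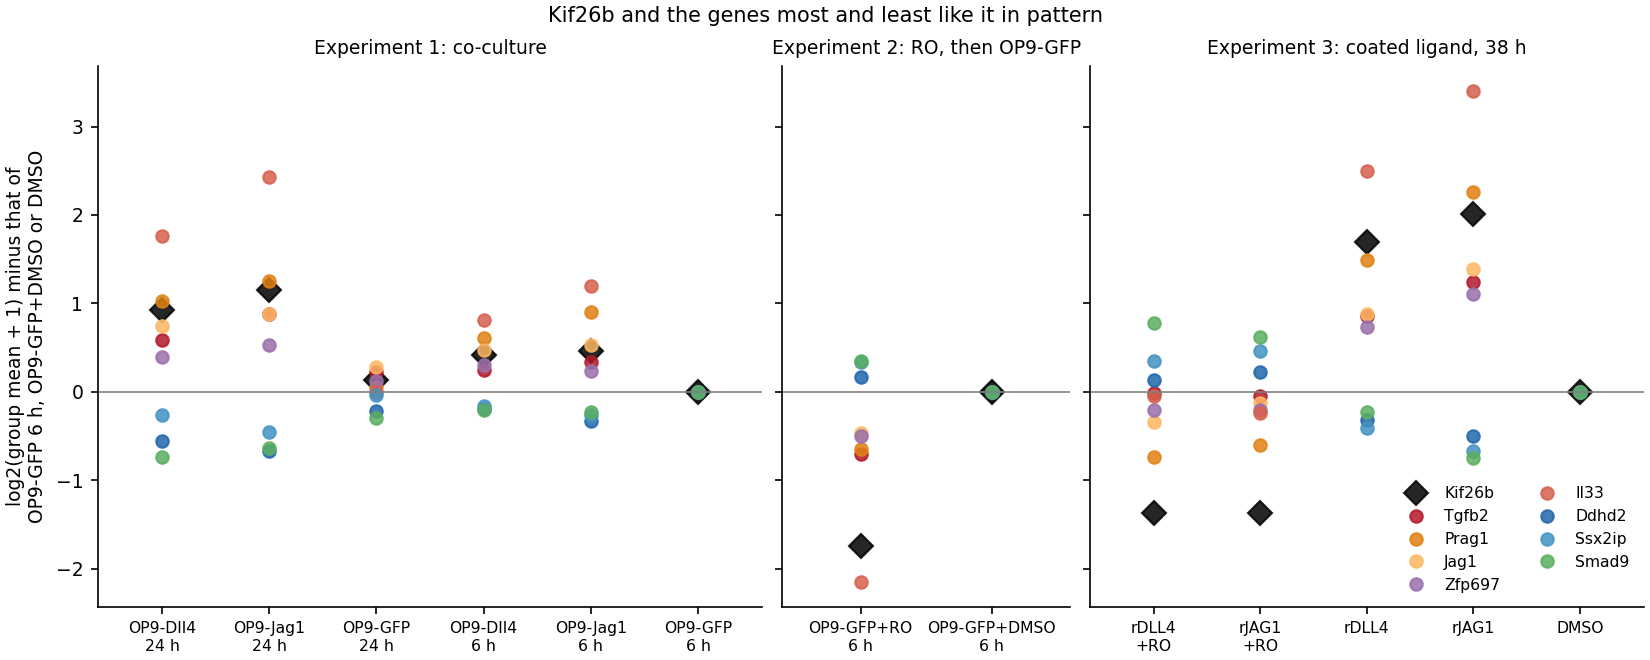
Level of Kif26b (black diamonds), the 5 genes most like it and the 3 least like it in pattern, as log2(group mean + 1) minus that of OP9-GFP 6 h, OP9-GFP with DMSO or DMSO without ligand (vertical axis), by group and experiment. Kif26b, Tgfb2, Prag1, Jag1, Zfp697 and Il33 lie above 0 with ligand and below 0 with RO over OP9-GFP, and in the rDLL4 and rJAG1 groups with RO Kif26b lies furthest below 0. The other genes were picked by their pattern in these same libraries, so their likeness or unlikeness to Kif26b follows from the choice.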

How the data were processed

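Per the labels' protocols, RNA came from a PicoPure kit and sequencing libraries from NEBNext Ultra. FastQC, cutadapt, RSEM and limma, without versions, and genome build GRCm38 are named in the submitters' processing notes; strand setting and annotation release are not given in the sources used here. Per gene, the authors deposited a normalized signal, in 1 table for each experiment (13886, 12984 and 13407 genes, 0 columns left unmapped). Each deposited value equals a whole number of reads plus 0.5, times a step that is fixed within a library (within 0.01 reads for 100% of values), so depth could be recovered. Where the step rests on few low values (all of experiment 2 and 3 libraries of experiment 3) it is less sure, and count tests were therefore run for experiment 1 only. Libraries held 11.2 to 34.2 M reads. Limits at 3 reads (95% confidence) cover counting error only.

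The main fit used limma 3.58.1 (R 4.3.3) on log2(signal + 1), with variances shrunk toward a trend on mean level, all groups of a table in 1 fit, with Benjamini-Hochberg adjustment over all its genes and a threshold of 0.05. Adjusted p values in the text are from this fit unless another is named. The pipeline was tested on simulated data. Differences understate the change of low genes. Alternatives were edgeR 4.0.16, DESeq2 1.42.0, other pseudocounts, a filter, quantile normalization, library weights, a replicate block and leaving out each library. Positions and names come from GENCODE for GRCm38 and promoters from RefSeq.

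Kif26b, the gene lists and the tests were chosen with earlier results of these data known. Named genes are Kif26b, list members that passed (up to the 5 largest per list and comparison), a few fixed examples, the 5 genes most and 3 least like Kif26b, and known Notch targets. Whether replicate libraries are separate cultures is not stated, so each p-value reflects the spread among these libraries alone, which may be technical. Replicate numbers come from the titles. At each time of experiment 1, same-numbered libraries correlated in their deviations from group means (0.19 to 0.68), so the numbers were taken to pair them. Libraries of different number were not correlated, so these values do not show that the number pairs them. Between times the correlations were 0.10, 0.056 and 0.084 over OP9-GFP, and higher in part over OP9-Dll4 (0.22, 0.23 and 0.031) and OP9-Jag1 (0.28, 0.16 and 0.080). The lowest of each set was under 0.10, so the numbers were not taken to pair libraries across times. Some of these values exceed the lowest within a time (0.19), so that limit is a choice, and the blocked calls rest on it. The numbers were also taken to pair the libraries of experiment 2 (0.18 to 0.40). In experiment 3 they were taken to pair them, except rDLL4 with RO against rDLL4 (lowest 0.078), where no blocked value is given. Pairing there was weak in other comparisons too, with a lowest correlation of 0.11 for rDLL4 against rJAG1. It was 0.13 for rJAG1 with RO against rJAG1. The block was 1 fit over all groups, so the blocked values of experiment 3 are less sure.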

Additional observations from a re-analysis of the deposited data

Results flagged for a closer look

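In the co-cultures the rise of Kif26b over a ligand differed between 24 h and 6 h, by a test of the difference itself with the replicate number as a block within each time. The OP9-Jag1 effect on the log2 scale was 1.01 at 24 h and 0.47 at 6 h, a difference of 0.54 (adjusted p = 6.3e-04 with the block, 1.0 without). The OP9-Dll4 effect was 0.79 at 24 h and 0.41 at 6 h, a difference of 0.38 (adjusted p = 0.033 with the block, 1.0 without). MEEC confluency was 25% at 24 h and 50% at 6 h, so time and density cannot be told apart. In experiment 2, with the only groups large enough for an outlier check, no Kif26b value lay apart from its group by Dixon's criterion.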

How the results depend on the processing

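Leaving out 1 library at a time gave 134 values, of which 128 had the sign of the values reported. Counted as the same were 123: tested values that kept sign and side of the threshold, and untested ones within 1 SD, whatever their sign. Other alternatives gave 175 values, of which 174 had the sign and 164 counted as the same. OP9-Dll4 against OP9-GFP at 24 h ran from 0.67 to 0.86 (log2) without 1 library and lost its call in 5 of 6 fits. OP9-Dll4 at 24 h against 6 h ran from 0.39 to 0.66 and lost its call in 4 of 6, without OP9-Dll4 library 1 or 3 of either time (adjusted p = 0.11 and 0.083 for 6 h, 0.057 and 0.14 for 24 h). OP9-Dll4 against OP9-Jag1 at 6 h ran from -0.20 to 0.072, so its direction turned. So did that of rDLL4 against rJAG1 under RO, which was near 0 and ran from -0.15 to 0.073.

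With the replicate number as a block within each time, 4 differences gained a call: OP9-Dll4 (0.41) and OP9-Jag1 (0.47) against OP9-GFP at 6 h, and the effects at 24 h minus 6 h of OP9-Dll4 (0.38) and OP9-Jag1 (0.54). The block changed no other call on Kif26b, and in the gene lists it added calls, not all of which are named here. A single block over both times called neither 6 h difference (adjusted p = 0.50 for OP9-Dll4, 0.25 for OP9-Jag1) nor either effect at 24 h minus 6 h (1.0 and 0.61), and library weights called neither effect (0.55 and 0.25). Library weights brought both 6 h differences past the threshold (OP9-Dll4 0.48, adjusted p = 0.044; OP9-Jag1 0.49, adjusted p = 0.011). Quantile normalization put OP9-Dll4 against OP9-GFP at 24 h (0.77, adjusted p = 0.0504) and OP9-Dll4 at 24 h against 6 h (0.43, adjusted p = 0.097) short of it; the cause was not tested. A pseudocount of 4, which shrinks folds by construction, gave -1.61 for RO against DMSO over OP9-GFP, -2.89 for rDLL4 with RO against rDLL4 and -3.19 for rJAG1 with RO against rJAG1. Without the 3 libraries numbered 2 at 6 h, an alternative chosen after seeing the data, the 6 h differences were 0.42 over OP9-Dll4 (adjusted p = 1.0) and 0.51 over OP9-Jag1 (adjusted p = 0.36).

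Of the 5 genes most like Kif26b, 3 were shared with a minimum mean signal of 20 (Tgfb2, Jag1 and Il33, then Ext1 and Klf9) and 2 with the replicate number taken out first. Of 1002 recounts of called genes, 184 moved by over 1.5 times: at 6 h 1 to 162 genes were called for OP9-Dll4 (1 as reported) and 1 to 594 for OP9-Jag1 (14), and at 24 h 46 to 808 for OP9-Dll4 (71) and 245 to 1512 for OP9-Jag1 (281). Groups of 3 or 4 libraries limit every comparison.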
